A study of Mus musculus with 6 samples.

Results

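The genes described here encode ubiquitin ligases and their adaptors, the enzymes that hand ubiquitin to them, deubiquitinases and subunits of the proteasome. They were taken by gene name from a table of heart transcripts: names that begin with Uba, Ube or a like prefix, with Usp, Rnf, Trim, Klhl, Asb, Cul or March followed by a digit, with Fbxl, Fbxo or Fbxw, with Psma to Psmg, or with Otud. Pseudogenes and the immunoproteasome gene *Psmb8* were left out by the same rule. This gave 83 of the 4132 genes analysed here, and 64 of them had a mean of at least 1 FPKM and were tested. The table analysed here holds part of a transcriptome, so many genes of these families are not analysed here, and no member had a March, Psme, Psmf or Psmg name.

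RNA-Seq was done on the hearts of *db/db* mice (genotype lepr-/-), which lack a working leptin receptor and become obese and diabetic. From 10 weeks of age, 3 mice received FGF1ΔHBS (named FGF1 variant in the labels), a form of fibroblast growth factor 1 with reduced heparan sulfate binding and little mitogenic activity, at 0.5 mg/kg by intraperitoneal injection every other day for 16 weeks. The other 3 mice received saline (vehicle) on the same schedule, and all hearts were taken at 26 weeks. Both groups carry the leptin receptor mutation, so the comparison is between hearts of treated and vehicle-injected *db/db* mice. The paper reports lower blood glucose, insulin and body weight in treated *db/db* mice. The part of these in the differences below was not tested. The question is whether the transcripts of protein degradation differ between the groups.

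Ubiquitin is joined to proteins by a relay of an activating enzyme (E1), a conjugating enzyme (E2) and a ligase (E3), and the ligase or its adaptor picks the protein. Chains of ubiquitin send a protein to the proteasome, in which a 19S regulatory particle binds and unfolds it and a 20S core cuts it, while deubiquitinases take ubiquitin off again. In the heart this system turns over contractile proteins, and some ligases, such as atrogin-1 (*Fbxo32*), are known from atrophying muscle.

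Depth as read from the steps between the lowest values was at up to 1.21 times that of vehicle mouse 1. This estimate rests on 8 to 20 genes for each other library. It was searched only near the depth of vehicle mouse 1, so it cannot show a large difference. Vehicle mouse 2 had the lowest sum of FPKM over the genes analysed (152340, against 215805 to 232837 in the others). The cardiomyocyte markers *Tnnt2* and *Actc1*, the only 2 of 10 on the list that are analysed here, were abundant in every heart, with a summed level of 8646 to 10050 FPKM in vehicle hearts and 8877 to 10306 FPKM in treated hearts. None of the 9 macrophage markers on the list is analysed here. The fibroblast marker *Dcn*, 1 of 7 on its list, lay at 154 to 288 FPKM in vehicle hearts and 368 to 431 FPKM in treated hearts. The atrial markers *Nppa* and *Sln* (2 of 5) summed to 62.2 to 458 FPKM in vehicle hearts and 22.7 to 75.5 FPKM in treated hearts, and *Sln* was at 27.4 FPKM in vehicle mouse 2 and at 0 in the other 2 vehicle hearts. The part of these cell types in the differences below was not tested, and in whole tissue fewer cells of a type and less RNA per cell cannot be told apart.

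Most members differed little between the groups, and no member passed the test over all genes. By limma on log2(FPKM + 1) with Benjamini-Hochberg adjustment over 2041 genes, 0 of 64 members had an adjusted p under 0.05, against 2 of all 2041 genes (0.098%). At an unadjusted p under 0.05 there were 11 members (17.2% of 64), close to the share of all genes tested (17.1%). Of these, 6 members were higher with FGF1ΔHBS (9.38%, against 7.1% of all genes) and 5 were lower (7.81%, against 10.0% of all genes). The 3 treated hearts all lay above the 3 vehicle hearts for 8 members (12.5%, against 10.7% of all genes) and all below for 9 members (14.1%, against 13.6%). These shares are near the background, so the counts say nothing particular about the members. For a single gene the two-sided exact permutation test on 3 mice against 3 cannot give a p under 0.1, which is the value of each non-overlapping member.

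The median log2 fold change (treated over vehicle) was -0.045 over the 64 members and -0.021 over all genes tested. It was positive for 26 members, negative for 38, and within 0.1 of 0 for 35. Members also varied less among mice of 1 group than genes at large, with a median within-group SD of 0.091 on the log2 scale, against 0.130 over all genes. This was not particular to the members, as tested genes of the same pathway with other names had a median of 0.101. Members were also more abundant (median of mean levels 10.5 FPKM, against 7.09 FPKM over all genes), and the part of level in this spread was not tested. The plot of fold changes by family shows how narrow most of these differences were.

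**Figure D1:**
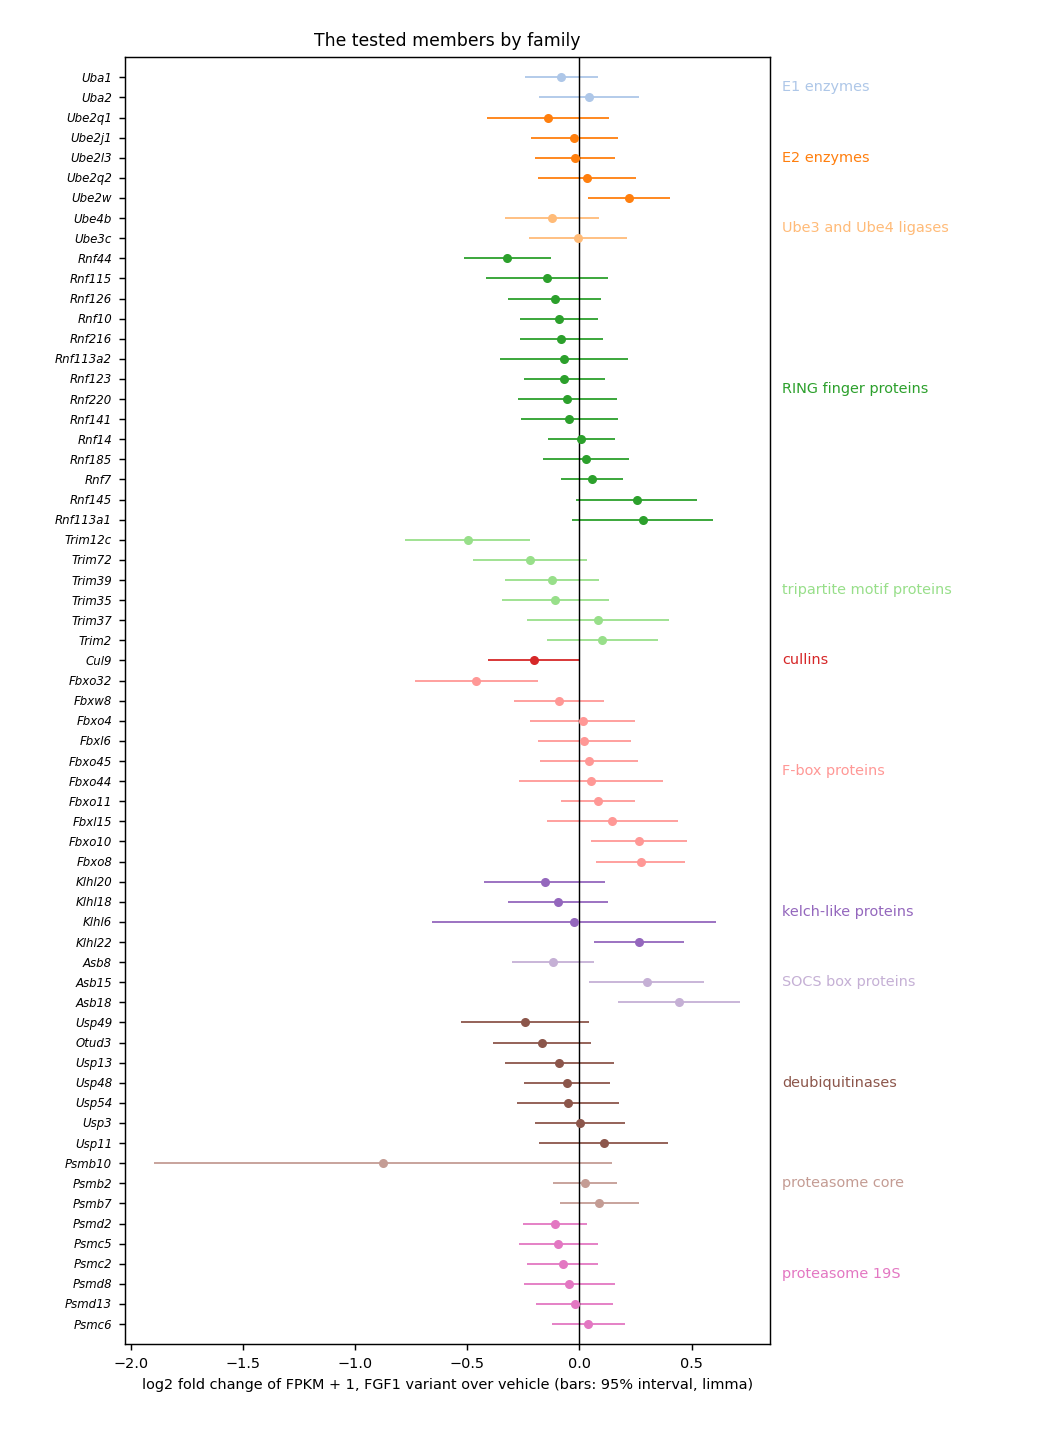
Log2 fold change of FPKM + 1 (FGF1ΔHBS over vehicle, x axis) for each of 63 tested members, grouped and coloured by family, with the point at the limma estimate and the bar spanning its 95% interval (3 mice in each group). *Asb18* has the highest estimate (0.44), *Psmb10* the lowest (-0.88) and the widest bar, and 35 estimates lie within 0.1 of 0.

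The E1 enzymes did not differ beyond the spread between mice. *Uba1*, the main activating enzyme for ubiquitin, was at 40.0, 44.5 and 44.7 FPKM with vehicle and at 41.9, 39.3 and 40.8 FPKM with FGF1ΔHBS, and the groups overlapped. Its log2 fold change was -0.08 (95% interval -0.24 to 0.08). *Uba2*, a subunit of the activating enzyme for the related modifier SUMO, had a mean of 13.2 FPKM with vehicle and 13.6 FPKM with FGF1ΔHBS (log2 fold change 0.04, 95% interval -0.18 to 0.27).

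Among the 5 E2 enzymes, 1 had an unadjusted p under 0.05, against 17.1% of all genes tested. *Ube2w*, which adds ubiquitin to the amino terminus of proteins, was at 7.76, 7.61 and 7.94 FPKM with vehicle and at 9.48, 9.66 and 8.56 FPKM with FGF1ΔHBS (ENSMUSG00000025939, chromosome 1, 16540790 to 16619489, minus strand, GRCm38). All treated hearts were above the vehicle hearts, which had an SD of only 0.167 FPKM. Its log2 fold change was 0.22 (95% interval 0.04 to 0.40, unadjusted p = 0.0235, limma adjusted p = 0.212). The most abundant E2, *Ube2l3*, which works with HECT-type ligases, was at 32.7 to 37.4 FPKM in vehicle hearts and 34.3 to 36.6 FPKM in treated hearts, and its log2 fold change was -0.02 (95% interval -0.20 to 0.16). The other 3 E2 genes, *Ube2q1*, *Ube2q2* and *Ube2j1*, had log2 fold changes between -0.14 and 0.03. The ligases *Ube3c* and *Ube4b*, which lengthen ubiquitin chains, were at mean levels of 10.3 and 7.98 FPKM over the 6 hearts, with log2 fold changes of -0.01 and -0.12.

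Ligases and their adaptors made up 54 of the 83 members, and 40 of them were tested. At an unadjusted p under 0.05, 5 were higher and 4 were lower with FGF1ΔHBS (against 7.1% and 10.0% of all genes tested), and 0 passed limma's adjusted test. Those 9 belong to different families, and the values of each mouse are shown in the plot of members by mouse.

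**Figure D2:**
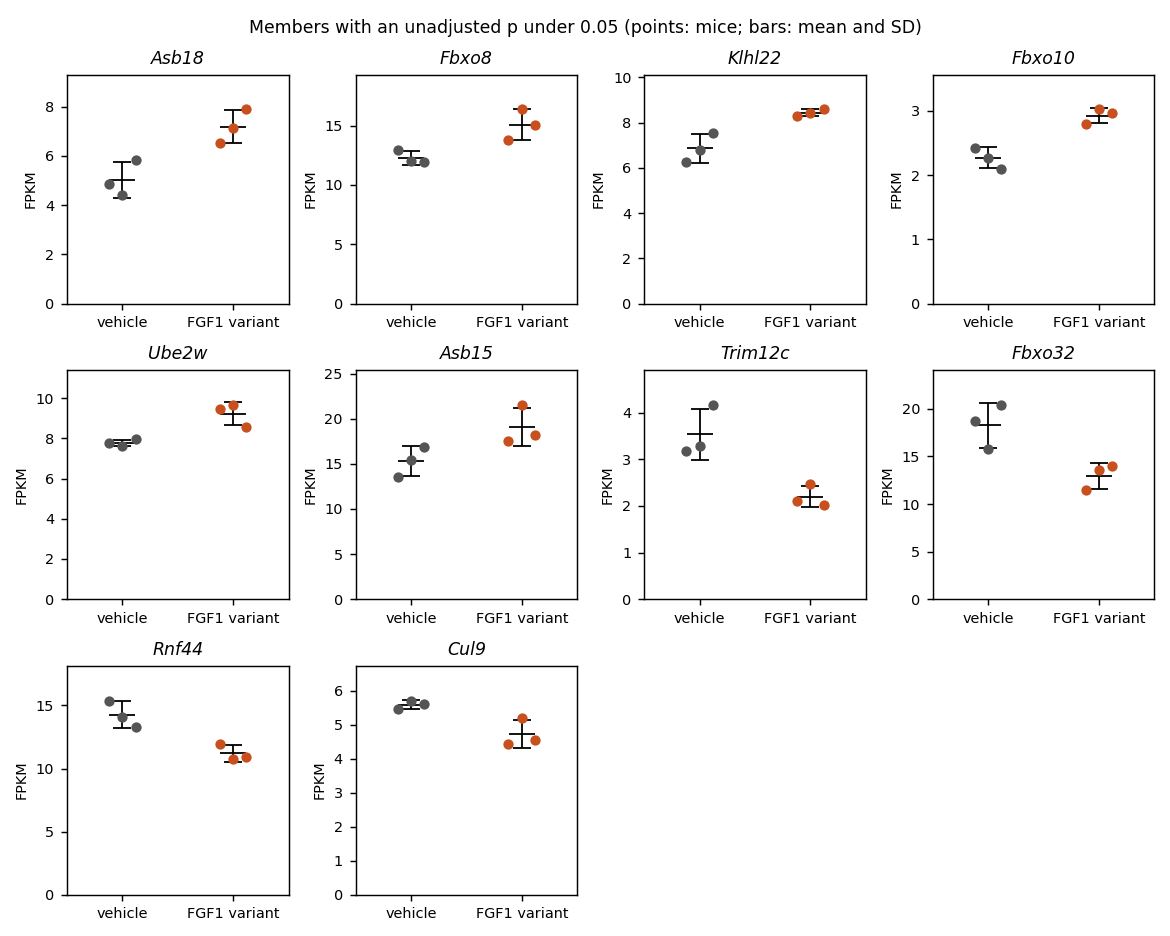
FPKM (y axis, from 0) of 10 members with an unadjusted p under 0.05, by group (x axis), with a point for each mouse and bars for the mean and SD of 3 mice. In all 10 panels the 3 treated hearts lie entirely above (*Asb18*, *Fbxo8*, *Klhl22*, *Fbxo10*, *Ube2w*, *Asb15*) or entirely below (*Trim12c*, *Fbxo32*, *Rnf44*, *Cul9*) the vehicle hearts. The panels were picked by that p, which favours groups that do not overlap. Over all genes tested, 10.7% lay entirely above and 13.6% entirely below. None of the 10 passed the adjusted test.

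The list of striated muscle ligases and adaptors held 23 genes, of which 4 are analysed here. At an unadjusted p under 0.05, 2 of the 4 were higher, 1 was lower and 1 did not reach it (over all genes tested, 7.1% were higher and 10.0% lower), and their median log2 fold change was 0.04, against -0.021 over all genes. *Fbxo32* encodes atrogin-1, the F-box protein that brings muscle proteins to a cullin ligase and that rises in wasting muscle (ENSMUSG00000022358, chromosome 15, 58175879 to 58214932, minus strand). It was at 18.7, 15.7 and 20.4 FPKM in the vehicle hearts and at 11.4, 13.6 and 13.98 FPKM in the treated hearts. The treated hearts were all lower, and the vehicle mean was 1.41 times theirs (18.3 ± 2.36 against 13.0 ± 1.36 FPKM, SD, n = 3 each). The log2 fold change was -0.46 (SE 0.117, 95% interval -0.74 to -0.18, unadjusted p = 0.00542, limma adjusted p = 0.119).

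*Asb18* and *Asb15* encode ankyrin repeat proteins with a SOCS box, the part that docks onto cullin ligases, and both are expressed mainly in striated muscle. *Asb18* (ENSMUSG00000067081, chromosome 1, 89950220 to 90014666, minus strand) was at 4.84, 4.40 and 5.84 FPKM with vehicle and at 6.53, 7.14 and 7.88 FPKM with FGF1ΔHBS. No vehicle heart reached the lowest treated heart. The treated mean was 1.43 times the vehicle mean (7.18 ± 0.678 against 5.03 ± 0.740 FPKM, SD, n = 3 each), with a log2 fold change of 0.44 (SE 0.116, 95% interval 0.17 to 0.72, unadjusted p = 0.00616, limma adjusted p = 0.123). Without vehicle mouse 3 its log2 fold change was 0.54 and its limma adjusted p 0.0366, the single member past the threshold in any alternative run, where the adjusted p ranged from 0.0366 to 0.357. *Asb15* (ENSMUSG00000029685, chromosome 6, 24528144 to 24573164, plus strand) was at 13.6, 15.5 and 16.9 FPKM with vehicle and at 17.5, 21.5 and 18.2 FPKM with FGF1ΔHBS. The groups did not overlap but came close, at 16.9 and 17.5 FPKM. The log2 fold change of *Asb15* was 0.30 (SE 0.109, 95% interval 0.04 to 0.56, unadjusted p = 0.0279, limma adjusted p = 0.230). *Asb8*, a more widely expressed gene of the family, was at 40.5, 40.4 and 41.7 FPKM with vehicle and at 40.2, 38.8 and 33.98 FPKM with FGF1ΔHBS, so that the groups just failed to overlap (log2 fold change -0.12, 95% interval -0.30 to 0.06).

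The promoters of this pair are shown because both adaptors were higher in every treated heart. These windows are read 5′ to 3′ from RefSeq on GRCm38.p6, from 250 bases before to 50 bases after the start of transcription. The *Asb18* promoter is chr1:90014617-90014916 on the minus strand, and the *Asb15* promoter is chr6:24527894-24528193 on the plus strand. Capitals mark motifs found on either strand: the forkhead motif TGTTTAC (as its reverse complement) and the MEF2 consensus, bound by a family of muscle transcription factors.
Asb18: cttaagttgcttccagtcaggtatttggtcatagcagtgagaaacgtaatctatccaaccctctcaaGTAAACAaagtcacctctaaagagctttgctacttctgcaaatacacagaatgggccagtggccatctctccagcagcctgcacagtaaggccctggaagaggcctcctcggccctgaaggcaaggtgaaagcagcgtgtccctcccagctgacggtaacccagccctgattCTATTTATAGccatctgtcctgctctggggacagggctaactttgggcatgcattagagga
Asb15: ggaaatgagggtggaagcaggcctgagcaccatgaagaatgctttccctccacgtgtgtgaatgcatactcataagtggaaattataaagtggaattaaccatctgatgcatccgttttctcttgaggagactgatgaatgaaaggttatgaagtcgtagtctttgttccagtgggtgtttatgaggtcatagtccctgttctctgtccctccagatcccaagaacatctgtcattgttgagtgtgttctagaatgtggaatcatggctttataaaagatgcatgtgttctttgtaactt
With the start base counted as 0, the forkhead match of *Asb18* lies at -183 to -177 and the MEF2 match at -11 to -2, and they do not overlap. The *Asb15* window holds neither. Among all 32851 promoters of the table, 3.65% held the forkhead motif and 3.19% the MEF2 consensus, and among the 87 promoters of 67 members these were 3.45% and 4.6%. The other members, among them *Fbxo32* and *Ube2w*, had no promoter in the table and were not searched for any motif. A match is only a stretch of letters, and binding was not measured.

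The remaining gene of the muscle list was the most abundant member of all. *Trim72*, which encodes the membrane repair protein MG53 (ENSMUSG00000042828, chromosome 7, 128003949 to 128011033, plus strand), was at 123, 142 and 154 FPKM with vehicle and at 133, 110 and 115 FPKM with FGF1ΔHBS. Treated mouse 1 lay above vehicle mouse 1, so the groups overlapped. *Trim72* had a log2 fold change of -0.22 (95% interval -0.47 to 0.04, unadjusted p = 0.081, limma adjusted p = 0.357). Skeletal muscle markers (3 of 10 on the list) summed to 0.60 to 1.14 FPKM in vehicle hearts and 1.14 to 1.43 FPKM in treated hearts.

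Of 15 F-box genes, 10 were tested, and *Fbxo32* was lower while *Fbxo8* and *Fbxo10* were higher at an unadjusted p under 0.05. Over all genes tested, 7.1% were higher and 10.0% lower at that threshold. *Fbxo8*, an F-box protein with a Sec7 domain (ENSMUSG00000038206, chromosome 8, 56551090 to 56593939, plus strand), was at 12.9, 11.99 and 11.9 FPKM with vehicle and at 13.8, 16.4 and 15.1 FPKM with FGF1ΔHBS. The vehicle hearts were tightly grouped and all below the treated hearts. Its log2 fold change was 0.27 (95% interval 0.08 to 0.47, unadjusted p = 0.0135, limma adjusted p = 0.162). *Fbxo10* was much less abundant, at 2.43, 2.27 and 2.10 FPKM with vehicle and 2.79, 3.02 and 2.97 FPKM with FGF1ΔHBS (ENSMUSG00000048232, chromosome 4, 45034247 to 45084604, minus strand). Its treated mean was 1.29 times the vehicle mean, with a log2 fold change of 0.27 (95% interval 0.05 to 0.48, unadjusted p = 0.0215, limma adjusted p = 0.204). The other 7 tested F-box genes had log2 fold changes between -0.09 and 0.15, among them *Fbxw8*, a partner of a cullin ligase that acts on insulin receptor substrate proteins, at 10.7 FPKM with vehicle and 9.95 FPKM with FGF1ΔHBS.

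In the RING finger family 14 of 18 genes were tested and 1 had an unadjusted p under 0.05, against 17.1% of all genes. *Rnf44* (ENSMUSG00000034928, chromosome 13, 54679399 to 54693907, minus strand) was at 15.4, 14.1 and 13.3 FPKM with vehicle and at 11.97, 10.7 and 10.9 FPKM with FGF1ΔHBS. All treated hearts were lower than all vehicle hearts. The log2 fold change of *Rnf44* was -0.32 (SE 0.0829, 95% interval -0.52 to -0.13, unadjusted p = 0.00579, limma adjusted p = 0.121). *Rnf10*, a ligase that acts on ribosomal proteins and the most abundant of the family, was at 96.2 to 101 FPKM in the treated hearts and 99.2 to 114 FPKM in the vehicle hearts (log2 fold change -0.09, 95% interval -0.27 to 0.08). *Rnf7*, a RING subunit of cullin ligases, had the smallest spread of the tested members within groups (SD 0.038 on the log2 scale) and a log2 fold change of 0.06 (95% interval -0.08 to 0.20). *Rnf113a1* and *Rnf113a2* are near copies whose reads the counting may have split. *Rnf113a1* was at 0.878, 1.11 and 0.587 FPKM with vehicle and 1.37, 1.25 and 1.12 FPKM with FGF1ΔHBS, while *Rnf113a2* overlapped between groups at 4.32 to 5.79 FPKM.

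The promoters of *Rnf44* and *Fbxo8* are shown because both hold the core of the antioxidant response element, TGACNNNGC, and the genes lay on opposite sides of 0. Of the 2 *Rnf44* promoters in the table, the one shown was picked because it holds the core, and the other does not hold it. The *Rnf44* promoter shown is chr13:54693911-54694210 on the minus strand, and that of *Fbxo8* is chr8:56550904-56551203 on the plus strand. Capitals mark the core, which is bound by the Nfe2l1 and Nfe2l2 (Nrf2) factors.
Rnf44: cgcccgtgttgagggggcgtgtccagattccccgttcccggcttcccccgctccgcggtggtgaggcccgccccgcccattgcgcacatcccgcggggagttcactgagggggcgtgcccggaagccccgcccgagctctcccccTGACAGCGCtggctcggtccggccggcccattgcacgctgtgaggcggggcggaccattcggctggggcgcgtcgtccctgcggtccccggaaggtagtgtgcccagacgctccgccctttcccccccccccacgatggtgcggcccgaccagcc
Fbxo8: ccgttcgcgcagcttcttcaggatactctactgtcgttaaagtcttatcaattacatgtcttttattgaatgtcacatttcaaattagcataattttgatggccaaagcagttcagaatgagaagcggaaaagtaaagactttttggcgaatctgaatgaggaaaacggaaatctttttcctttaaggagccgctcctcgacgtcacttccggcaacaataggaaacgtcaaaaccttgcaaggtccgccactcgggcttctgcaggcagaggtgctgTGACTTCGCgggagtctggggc
The core lies at -105 to -97 in *Rnf44* and at 28 to 36, after the start, in *Fbxo8*. It was found in 17.2% of the promoters of members and in 12.4% of all promoters. The 15 members with the core were *Asb8*, *Fbxo11*, *Fbxo8*, *Otud3*, *Psmc6*, *Rnf113a1*, *Rnf220*, *Rnf44*, *Trim2*, *Trim30b*, *Ube2j1*, *Ube2q2*, *Ube3c*, *Usp13* and *Usp17lc*. Besides *Rnf44* and *Fbxo8*, *Asb8* and *Otud3* were lower and *Rnf113a1* higher in every treated heart. The groups overlapped for the other tested holders. Over all genes tested, 10.7% were higher and 13.6% lower in every treated heart.

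Kelch-like proteins and cullins gave 1 member each at an unadjusted p under 0.05, against 17.1% of all genes tested. *Klhl22*, an adaptor of a cullin ligase that acts in amino acid signalling to mTORC1 (ENSMUSG00000022750, chromosome 16, 17759618 to 17793382, plus strand), was at 6.26, 6.79 and 7.53 FPKM with vehicle and at 8.29, 8.44 and 8.58 FPKM with FGF1ΔHBS. The treated hearts were close together (SD 0.145 FPKM) and above every vehicle heart. Its log2 fold change was 0.27 (95% interval 0.07 to 0.47, unadjusted p = 0.0162, limma adjusted p = 0.173). *Cul9*, a large cytoplasmic cullin that binds p53 and the only cullin analysed here (ENSMUSG00000040327, chromosome 17, 46500572 to 46546388, minus strand), was at 5.45, 5.71 and 5.60 FPKM with vehicle and 4.42, 5.19 and 4.56 FPKM with FGF1ΔHBS. Here too the groups did not overlap, but the interval of the log2 fold change almost reached 0 (-0.20, 95% interval -0.41 to -0.001, unadjusted p = 0.0491, limma adjusted p = 0.288).

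*Klhl6*, known from lymphocytes and endothelial cells, had the second largest spread of the tested members. It was at 3.36, 3.46 and 1.22 FPKM with vehicle and at 2.84, 2.13 and 2.41 FPKM with FGF1ΔHBS, so that vehicle mouse 3 was below all other hearts. The endothelial markers *Tie1* and *Emcn* (2 of 7 on the list) summed to 44.5, 46.7 and 21.7 FPKM with vehicle and to 34.7, 24.9 and 42.0 FPKM with FGF1ΔHBS, and were also lowest in vehicle mouse 3. Their part in the level of *Klhl6* was not tested. The log2 fold change of *Klhl6* was -0.02, with an interval from -0.66 to 0.61.

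Endoplasmic reticulum-associated degradation removes misfolded proteins from the secretory pathway. Of 16 genes on that list, 4 are analysed here and 3 were tested, and 0 of the 3 had a p under 0.05 by limma, adjusted or not. *Rnf145*, a ligase of the endoplasmic reticulum that takes part in sterol sensing, was at 5.35, 5.24 and 4.18 FPKM with vehicle and 6.64, 5.45 and 6.09 FPKM with FGF1ΔHBS. The treated hearts were all above the vehicle hearts (log2 fold change 0.26, 95% interval -0.01 to 0.52, unadjusted p = 0.0595, limma adjusted p = 0.310). The ligase *Rnf185* and the conjugating enzyme *Ube2j1* of this route had log2 fold changes of 0.03 and -0.02.

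Deubiquitinases showed no difference that passed either threshold. Of 9 genes 7 were tested, and their log2 fold changes by limma lay between -0.24 and 0.11, with 0 at an unadjusted p under 0.05. *Usp13*, the most abundant, which acts in autophagy and in degradation from the endoplasmic reticulum, was at 27.5, 31.0 and 36.2 FPKM with vehicle and at 29.8, 30.4 and 28.2 FPKM with FGF1ΔHBS. Its vehicle hearts spread around the treated ones. *Usp49*, which removes ubiquitin from histone H2B, was at 1.76, 1.59 and 1.17 FPKM with vehicle and 1.06, 1.07 and 1.19 FPKM with FGF1ΔHBS (log2 fold change -0.24, unadjusted p = 0.0842, limma adjusted p = 0.359). *Otud3* was lower in every treated heart, at 2.07 to 2.21 FPKM against 2.36 to 2.75 FPKM, but with an interval that held 0 (log2 fold change -0.17, 95% interval -0.38 to 0.05).

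Of the 10 proteasome members 9 were tested, and 0 had an unadjusted or adjusted p under 0.05 by limma. Leaving *Psmb10* aside, the other 8 tested subunits with Psm names had log2 fold changes from -0.11 to 0.09. Their 95% intervals all lay between -0.27 and 0.27. *Adrm1*, a part of the 19S particle outside the name rule, had a log2 fold change of -0.34 and is described below. The highest levels were those of *Psmb7*, the core subunit with trypsin-like activity, at 92.9, 104 and 95.97 FPKM with vehicle and at 109, 106 and 96.5 FPKM with FGF1ΔHBS. *Psmb2*, a structural core subunit, was nearly level at 80.7, 78.9 and 78.6 FPKM with vehicle and 83.3, 77.1 and 82.2 FPKM with FGF1ΔHBS. The groups overlapped for both. There were 6 genes of the 19S particle with Psm names. *Psmd2*, the scaffold subunit that docks shuttle factors, was the most abundant of them and was lower in every treated heart. It was at 61.2, 64.0 and 62.4 FPKM with vehicle and 56.7, 56.3 and 60.6 FPKM with FGF1ΔHBS (log2 fold change -0.11, 95% interval -0.25 to 0.03, unadjusted p = 0.111, limma adjusted p = 0.400). The ATPases *Psmc2*, *Psmc5* and *Psmc6* and the lid subunits *Psmd8* and *Psmd13* were less abundant, down to a mean of 30.5 FPKM for *Psmd13*, and overlapped between groups.

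**Figure D3:**
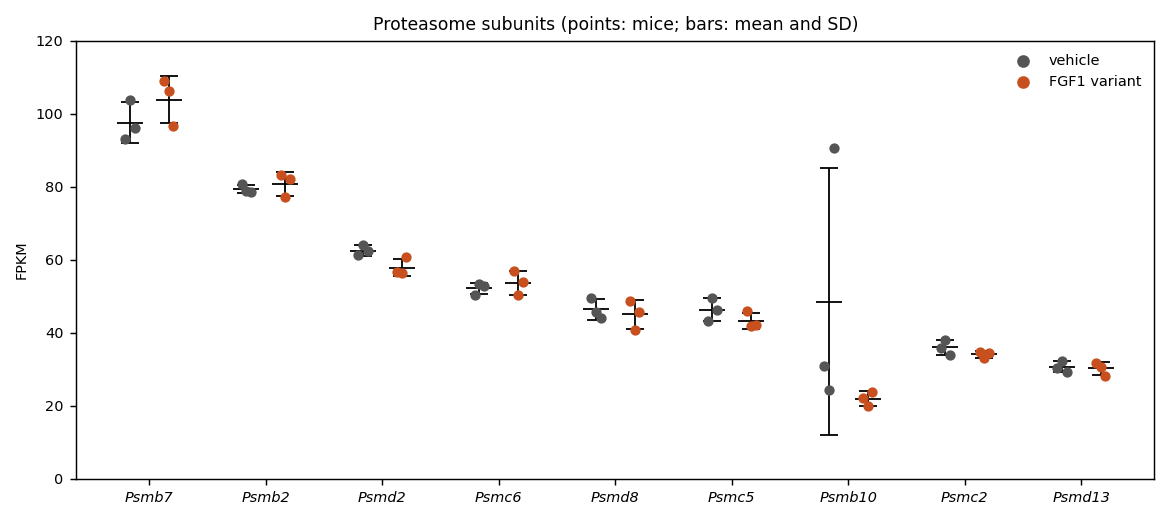
FPKM (y axis, from 0) of the 9 tested proteasome members (x axis, in order of mean level). Points are vehicle (grey) or FGF1ΔHBS (orange) mice, and bars give the mean and SD of 3 mice. For *Psmb10* vehicle mouse 3 stands at 90.5 FPKM, apart from all other hearts (19.9 to 30.8 FPKM).

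*Psmb10* encodes the immunoproteasome subunit that takes the place of *Psmb7* under interferon (ENSMUSG00000031897, chromosome 8, 105935735 to 105938444, minus strand). It was at 30.8, 24.4 and 90.5 FPKM with vehicle and at 22.03, 19.9 and 23.9 FPKM with FGF1ΔHBS. A single heart, vehicle mouse 3, set the vehicle mean of 48.5 ± 36.5 FPKM (SD, n = 3) apart from the treated mean of 21.9 ± 2.0 FPKM (SD, n = 3). *Psmb10* had a log2 fold change of -0.88 with an interval from -1.90 to 0.15 (unadjusted p = 0.0827, limma adjusted p = 0.359). Without vehicle mouse 3 it was -0.31 (unadjusted p = 0.0316, limma adjusted p = 0.159), and the adjusted p ranged from 0.159 to 0.609 over the alternatives. The treated hearts were all below the vehicle hearts with or without that mouse. *Psmb8*, the immunoproteasome gene that the name rule leaves out, was at 5.93, 6.91 and 44.7 FPKM with vehicle and at 5.30, 3.95 and 5.47 FPKM with FGF1ΔHBS, with the same heart apart.

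Of 23 interferon-inducible genes on the list, 4 are analysed here, and besides *Psmb10* they are *Trim12c*, *Trim30b* and *Trim30d* of a cluster of antiviral tripartite motif genes on chromosome 7. Of the 2 that were tested, 1 was lower at an unadjusted p under 0.05, against 10.0% of all genes tested. *Trim12c* (ENSMUSG00000057143, 104338754 to 104353362, minus strand) was at 3.17, 3.27 and 4.16 FPKM with vehicle and at 2.11, 2.47 and 2.03 FPKM with FGF1ΔHBS. All treated hearts were lower, and vehicle mouse 3 was the highest. Its log2 fold change was -0.50 (SE 0.118, 95% interval -0.78 to -0.22, unadjusted p = 0.0038, limma adjusted p = 0.116), the smallest p of the members. *Trim30d* was at 0.870, 1.17 and 1.05 FPKM with vehicle and 0.689, 0.891 and 0.643 FPKM with FGF1ΔHBS, and *Trim30b* had a mean of 0.205 and 0.126 FPKM. Both were under the minimum of 1 FPKM and were not tested. Genes of this cluster resemble each other closely, and the counting could have split reads between them.

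The promoter of *Trim12c* is shown because it belongs to the member with the smallest p and holds the interferon response motif (TTTC, then any 2 bases, then TTTC), in capitals. It is chr7:104353300-104353599 on the minus strand, and the match lies at -29 to -20.
Trim12c: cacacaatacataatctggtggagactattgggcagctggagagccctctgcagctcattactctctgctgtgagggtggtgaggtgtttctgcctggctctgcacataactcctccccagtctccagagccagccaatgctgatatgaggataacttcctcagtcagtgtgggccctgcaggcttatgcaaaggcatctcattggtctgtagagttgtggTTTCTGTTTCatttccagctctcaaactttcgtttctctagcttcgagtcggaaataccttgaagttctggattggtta
This motif and the MEF2 consensus were added to the search after the values of the genes were seen. It was found in 11.5% of the promoters of members and in 3.44% of all promoters. The 8 members with a match were *Fbxl15*, *Klhl22*, *Rnf182*, *Trim12c*, *Trim2*, *Trim30d*, *Usp17lc* and *Usp49*, and *Klhl22*, also among the members at an unadjusted p under 0.05, was higher with FGF1ΔHBS.

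The other tripartite motif genes were in the narrow range of most members. *Trim35* was at 26.5, 31.5 and 24.1 FPKM with vehicle and 24.8, 24.6 and 26.2 FPKM with FGF1ΔHBS, and *Trim39*, *Trim37* and *Trim2* had log2 fold changes of -0.12, 0.08 and 0.10. None of these 4 had a p under 0.05 by limma, adjusted or not.

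How members varied from mouse to mouse is shown in the plot of deviations. Vehicle mouse 3 was the highest or lowest of the 6 hearts for 24 members (37.5%, against 42.7% of all genes). FGF1ΔHBS mouse 2 was so for 25 members (39.1%, against 32.5% of all genes) and was the lowest heart for 19 of them. Members differed in the GC content of their transcripts, with a median of 45.6% for the 6 that were higher and 56.1% for the 5 that were lower at an unadjusted p under 0.05. Across the 64 members, which share the same 6 libraries and are not independent replicates, Spearman's rho between GC content and log2 fold change was -0.332, against -0.222 over 2039 genes. With a correction for GC content 9 members (14.1%, against 16.7% of all genes) had an unadjusted p under 0.05 by limma. *Ube2w*, *Asb15* and *Cul9* were no longer among them, while *Rnf113a1* was added.

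**Figure D4:**
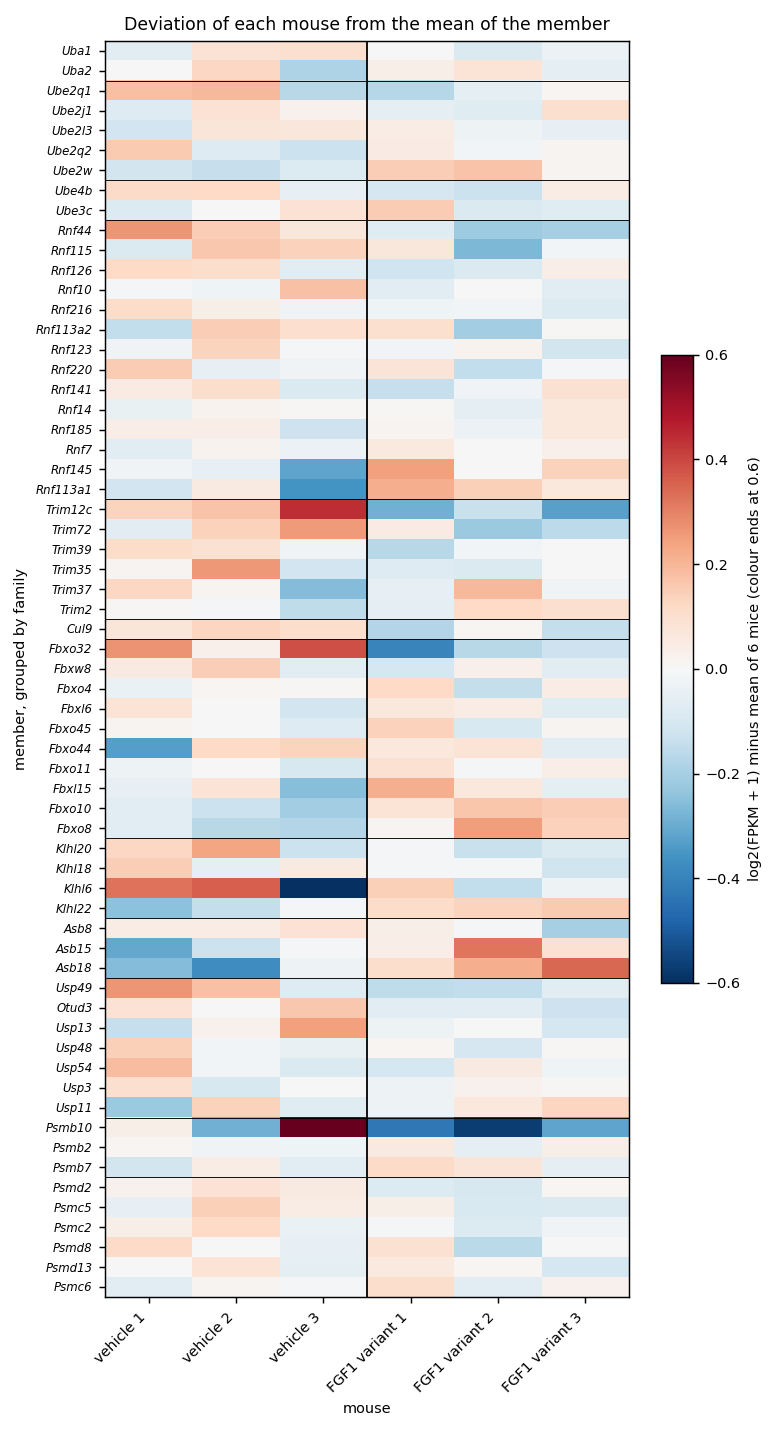
Deviation of log2(FPKM + 1) of each mouse (x axis) from the mean of 6 mice for 63 tested members (y axis, grouped by family, thin lines between families), from blue (below) to red (above), with the colour scale ending at 0.6. *Psmb10* and *Trim12c* are reddest and *Klhl6* bluest in vehicle mouse 3, and most rows stay pale.

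The 19 members that were not tested had mean levels between 0.0044 and 0.886 FPKM, and none was at 0 in every library. The highest of them were *Trim30d*, *Fbxl16* and *Trim67*, and *Psma8*, a core subunit known from testis, was at 0.169 to 0.395 FPKM. *Asb9*, *Rnf112*, *Rnf182* and *Ubap1l* were listed at 0 in all 3 vehicle hearts and *Usp17lc* in all 3 treated hearts. The rest were *Fbxo2*, *Fbxo16*, *Fbxo39*, *Fbxl13*, *Rnf186*, *Rnf223*, *Trim30b*, *Trim43c*, *Otud7a* and *Ube4bos1*, an RNA gene on the strand opposite *Ube4b* whose reads cannot be told from those of *Ube4b* without strand.

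Genes of the same pathway with other names gave 49 analysed here and 45 tested. At an unadjusted p under 0.05, 2 were higher and 8 were lower, and 0 passed limma's adjusted test. Of all genes tested, 145 (7.1%) were higher and 204 (10.0%) lower at that threshold, a smaller lean. The median log2 fold change of the 45 was -0.0087. Of 94 HECT and other ligases on the list 21 are analysed here, and *Nhlrc1* (malin, which acts in glycogen metabolism) was higher, while *Dtx3*, *Mib2* (a ligase of Notch ligands) and *Cblb* were lower. *Dtx3* was at 23.8, 27.5 and 24.6 FPKM with vehicle and at 18.9, 20.2 and 18.1 FPKM with FGF1ΔHBS (log2 fold change -0.39, unadjusted p = 0.00171, limma adjusted p = 0.116). Of 92 further parts of cullin ligases 14 are analysed here, with the adaptor *Spop* higher (0.17) and the SOCS box genes *Wsb1* (-0.36) and *Socs2* (-0.50, a feedback inhibitor of cytokine signalling) lower on the log2 scale. Of 37 other deubiquitinases 5 are analysed here, and *Zranb1* was lower (log2 fold change -0.25).

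Among p97 partners, shuttle factors and proteasome regulators 8 of 48 are analysed here. At an unadjusted p under 0.05, 2 were lower, against 10.0% of all genes tested. *Adrm1* encodes Rpn13, a ubiquitin receptor of the 19S particle. It was at 33.9, 35.2 and 33.2 FPKM with vehicle and at 28.3, 24.7 and 27.4 FPKM with FGF1ΔHBS. Its treated hearts were all below its vehicle hearts (log2 fold change -0.34, 95% interval -0.51 to -0.17, unadjusted p = 0.00227, limma adjusted p = 0.116). The shuttle factor *Ubqln4* was lower as well (log2 fold change -0.25, limma adjusted p = 0.154). *Nedd8*, the modifier that activates cullin ligases and the single gene of 12 on the list of ubiquitin-like modifiers analysed here, was at 53.8 to 54.6 FPKM with vehicle and 53.6 to 58.4 FPKM with FGF1ΔHBS. *Dtx3l*, an interferon-inducible ligase, was at 3.23, 3.05 and 5.86 FPKM with vehicle and 3.05, 2.39 and 2.41 FPKM with FGF1ΔHBS, with vehicle mouse 3 again the highest.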

How the data were processed

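RNA-Seq of 6 *db/db* hearts, 3 with vehicle and 3 with FGF1ΔHBS, was analysed. The authors deposited FPKM values, fragments per gene scaled to transcript length and mapped fragments. Reads were trimmed with Trimmomatic, and the submitters' processing notes name Bowtie 0.12.2, HISAT2 2.0, StringTie 1.3.0 and the build mm8, but coordinates in the table match GRCm38. The paper describes single-end reads and the labels paired-end libraries. The labels' preparation text speaks of adipose tissue, while the tissue label is heart. The adipocyte marker *Adipoq*, 1 of 8 on its list, lay at 0 to 0.217 FPKM in vehicle hearts and 0.246 to 1.21 FPKM in treated hearts. Mice were taken as separate samples.

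Values were transformed to log2(FPKM + 1), which understates the change of low genes, and 2041 genes averaging 1 FPKM or more entered limma 3.58.1 under R 4.3.3 (lmFit and trended eBayes, then Benjamini-Hochberg over these genes, threshold 0.05). FPKM gives no read counts, so the number of mice limits the precision. The fit was tested on simulated data. Locations were taken from GENCODE M21, which held all 83 members (GRCm38), and promoters from RefSeq (GRCm38.p6), with motifs searched on both strands. Alternatives changed the pseudocount (0.1), the filter (none, or 5 FPKM), the scaling (median ratio or quantile), eBayes (untrended or robust), and added a replicate block or a GC correction or left out each mouse.

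The members and gene lists were chosen with earlier results of these data known. Named were members past the adjusted threshold, up to 12 in each direction with an unadjusted p under 0.05, the 2 most abundant of each family, tested genes of the role lists and genes of the pathway lists with an unadjusted p under 0.05. *Rnf145*, *Rnf113a1*, *Rnf113a2*, *Klhl6*, *Usp49*, *Otud3*, *Dtx3l* and others outside this rule were added after their values were seen. Annotation text in the table was not used. A member that is not reported here stayed in the fits and counts.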

Additional observations from a re-analysis of the deposited data

How the results depend on the processing

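Over 15 alternatives, 0 members passed limma's adjusted threshold except without vehicle mouse 3, where 1 (*Asb18*) did, so that leaving out a mouse gave 0 to 1. The members at an unadjusted p under 0.05 numbered 8 to 14. *Fbxo32*, *Rnf44* and *Asb18* were among them in all 15, *Trim12c* in 14 of 14, *Fbxo8* and *Klhl22* in 14, *Asb15* in 11, *Ube2w* in 10, *Fbxo10* in 9 of 14, *Cul9* in 4 and *Psmb10* in 3. A minimum of 5 FPKM leaves out *Trim12c* and *Fbxo10*. The genes past the adjusted threshold, 2 of 2041, became 4 with a pseudocount of 0.1, 0 with no filter, 1 with median ratio scaling, with quantile normalization or with eBayes without trend, 5 with robust eBayes and 0 to 82 without 1 mouse, the 82 without vehicle mouse 3. Genes at an unadjusted p under 0.05, 349 of 2041, were 231 to 494 without 1 mouse.

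The replicate number as a block gave 0 genes past the adjusted threshold and 269 at an unadjusted p under 0.05, with 9 members. Deviations of same-numbered mice had correlations of -0.008, -0.16 and -0.22, and those of differently numbered mice ranged from -0.10 to 0.27.

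Of 33 named members 25 kept their direction under every alternative. The other 8 had differences within 0.1 of 0. With median ratio scaling the log2 fold changes of *Ube2j1*, *Ube2l3* and *Ube3c* were 0.0044, 0.0078 and 0.020, with quantile normalization those of *Ube2j1* and *Ube3c* were 0.032 and 0.039, and with the GC correction that of *Psmc6* was -0.030. Without 1 mouse they ranged from -0.076 to 0.015 for *Ube2j1*, -0.082 to 0.012 for *Ube2l3*, -0.083 to 0.036 for *Ube3c*, -0.0023 to 0.085 for *Psmc6*, -0.091 to 0.0021 for *Usp48*, -0.025 to 0.057 for *Rnf185*, -0.039 to 0.114 for *Uba2* and -0.182 to 0.010 for *Usp13*. The cause of these shifts was not tested. With 3 mice a group, a member whose interval holds 0 may still differ by up to the bounds of that interval.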
